A study of Mus musculus with 5 samples.

Results

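Expression of 10 genes that mark trophectoderm and simple epithelium was followed in RNA from a line of mouse embryonic stem cells and in RNA recovered from its lysates by immunoprecipitation (RIP-chip, RNA immunoprecipitation read on microarrays). The members were taken by gene symbol from the platform's probe annotation, with no filter on level: the transcription factor genes Cdx2, Gata3, Eomes, Elf5, Tfap2c and Hand1, the keratin genes Krt8, Krt18 and Krt19, and the surface marker gene Plet1. Each had 1 probe set, so they are 10 of 34760 probe sets and 10 of 19937 named genes.

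All 5 arrays came from R1 cells, a male line of strain 129X1 x 129S1 taken from the inner cell mass of the blastocyst, grown without feeders in LIF and serum. The FLAG:Ctrl line expressed a pCAGGS construct with the 3xN-FLAG tag alone, and the FLAG:MKRN1 line expressed the tag fused to MKRN1, a RING finger and zinc finger protein. Both lines were G418-resistant and had been thawed on mouse embryonic fibroblasts, which were removed by passaging on gelatin. The pCAGGS promoter is active in most cell types, and the number of clones behind each lysate was not stated in the labels. The 5 groups of 1 array each were the FLAG:Ctrl input, the FLAG:MKRN1 input, the RNA that anti-FLAG beads recovered from FLAG:Ctrl lysate (FLAG:Ctrl RIP), the RNA they recovered from FLAG:MKRN1 lysate, and the RNA that IgG beads recovered from FLAG:MKRN1 lysate (IgG RIP). An input is total RNA from an aliquot of lysate kept before immunoprecipitation.

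The trophectoderm is the outer epithelium of the blastocyst and gives rise to the trophoblast of the placenta, while embryonic stem cells descend from the inner cell mass. TEAD4 with its coactivator YAP1 switches on Cdx2 and Gata3 in the outer cells, and EOMES, ELF5 and TFAP2C act with CDX2 to keep trophoblast stem cells in their state. Keratins are the filament proteins of epithelia: KRT8, a type II keratin, pairs with a type I keratin such as KRT18 or KRT19, and this set is called the simple keratins.

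Values are log2 signals as deposited, and a difference of 1 is 2-fold. Each group held 1 array, so replicate error is unknown, no test was run, and no difference below has a replicate check. A level filter of 5.76, the median of all probe-set means, is used as a yardstick of dim signal; it is not a detection call. Signals of different probe sets are not set against each other, because probe sets differ in response. The exception is the summed signal of 2 marker lists, in which bright probe sets weigh most. Shares of such a sum are of array signal and not of RNA. In lysates of whole cultures, fewer cells of a type and less RNA per cell cannot be told apart. The labelled cell type was borne out by the markers: all 12 stem cell marker genes lay above the filter on all 5 arrays, with Pou5f1 from 12.04 to 12.42 and Sox2 from 11.44 to 11.59. The targeted gene did not separate the lines, since Mkrn1 read 11.80 in input RNA of FLAG:Ctrl cells and 11.71 in that of FLAG:MKRN1 cells. Whether its probe set reads the transcript of the construct was not tested. The RIP made with anti-FLAG beads from FLAG:MKRN1 cells is therefore called the MKRN1-labelled RIP. That array stood apart from the others, with Pearson's r of 0.959 to 0.967 across probe sets against 0.992 between the 2 control RIPs.

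RefSeq places Krt8 and Krt18 side by side on chromosome 15 on opposite strands, with no other protein-coding gene between them. Their promoter windows are shown because the pair gave different results below, and that of Plet1 because its signal differed between the lysates. Each runs from 250 bases before to 50 bases after the annotated start in GRCm38.p6, written 5′ to 3′ on the gene's strand. Capitals mark every match, on either strand, to 4 motifs: the core promoter box TATAAA, the motif GCCNNNGGC of AP-2 factors such as TFAP2C, the motif AGATAA bound by zinc finger factors such as GATA3, and the motif TCACACC of the T-box family, to which EOMES belongs. The windows lie at chr15:102004293-102004592 on the minus strand for Krt8, chr15:102027966-102028265 on the plus strand for Krt18 and chr9:50494275-50494574 on the plus strand for Plet1.
Krt8: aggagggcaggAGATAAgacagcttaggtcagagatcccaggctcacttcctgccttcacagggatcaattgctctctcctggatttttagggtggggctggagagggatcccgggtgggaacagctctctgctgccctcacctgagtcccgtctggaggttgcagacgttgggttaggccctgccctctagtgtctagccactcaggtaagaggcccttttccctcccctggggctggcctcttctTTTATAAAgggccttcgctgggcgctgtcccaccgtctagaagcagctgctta
Krt18: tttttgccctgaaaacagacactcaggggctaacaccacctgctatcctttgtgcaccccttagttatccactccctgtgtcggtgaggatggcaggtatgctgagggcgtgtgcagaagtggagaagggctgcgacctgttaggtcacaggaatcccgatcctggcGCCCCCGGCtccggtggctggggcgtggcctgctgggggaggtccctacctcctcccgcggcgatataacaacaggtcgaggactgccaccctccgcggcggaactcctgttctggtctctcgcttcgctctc
Plet1: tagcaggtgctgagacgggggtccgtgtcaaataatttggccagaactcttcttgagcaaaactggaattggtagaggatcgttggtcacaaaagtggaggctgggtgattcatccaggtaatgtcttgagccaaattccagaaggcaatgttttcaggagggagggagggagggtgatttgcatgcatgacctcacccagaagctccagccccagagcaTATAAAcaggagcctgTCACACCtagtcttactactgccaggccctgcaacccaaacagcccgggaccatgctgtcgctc

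The motifs are common ones. Of 32851 promoter windows of the same length, TATAAA occurs in 13.6%, GCCNNNGGC in 16.6%, AGATAA in 11.2% and TCACACC in 3.98%. In the Krt8 window the TATA motif matches on both strands, overlapping in TTTATAAA; these matches begin 3 bases and 1 base before the annotated start and run across it. The GATA motif of this window begins 239 bases before the start. The Krt18 window holds 1 AP-2 match, beginning 83 bases before the start. In the Plet1 window the TATA match begins 30 bases and the T-box match 14 bases before the start. Windows were on hand for 7 of the 10 genes, Elf5 having 2 of the 8 windows; Krt19, Tfap2c and Hand1 were not matched. The windows of Gata3 and Cdx2 also held AP-2 matches, and 1 of the Elf5 windows a T-box match. A match of letters is a description and not a binding site.

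**Figure D1:**
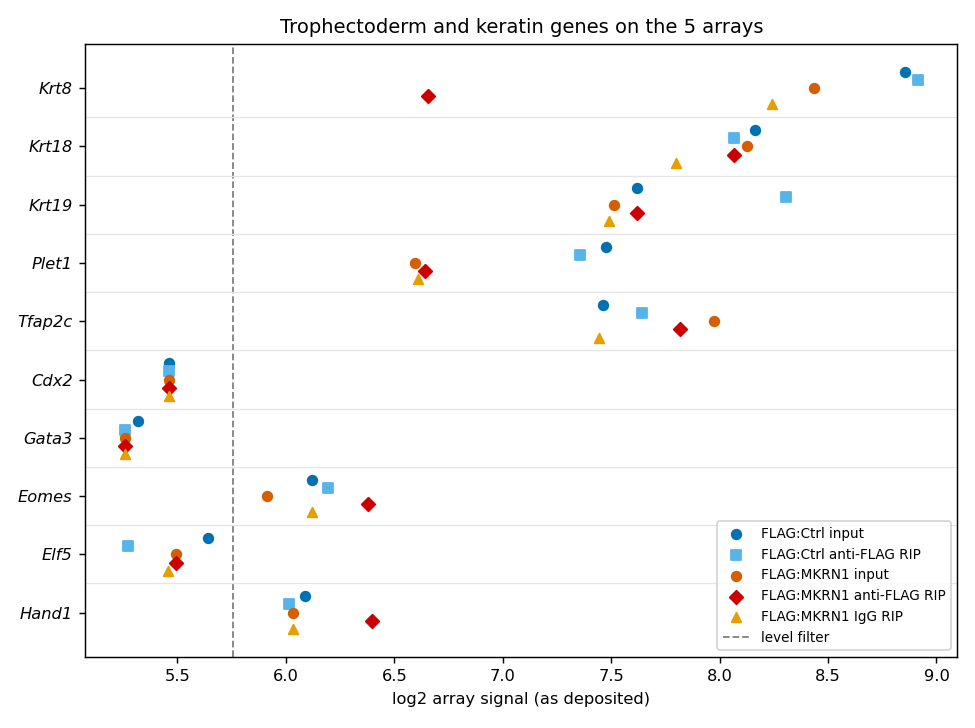
Log2 array signal (horizontal axis) of the 10 genes (rows) on the 5 arrays, 1 symbol per array; the dashed line is the level filter of 5.76. The red diamond of Krt8, the MKRN1-labelled RIP, stands far to the left of its other symbols, at 6.66, and the blue FLAG:Ctrl symbols of Plet1 lie to the right of its other 3.

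Krt8 had the widest range of the 10 genes. Its signal was 8.86 in the FLAG:Ctrl input, 8.43 in the FLAG:MKRN1 input, 8.91 in the FLAG:Ctrl RIP, 8.24 in the IgG RIP and only 6.66 in the MKRN1-labelled RIP. The MKRN1-labelled RIP was the lowest array by a wide margin, and the other 4 lay between 8.24 and 8.91. It was 4.78-fold below the FLAG:Ctrl RIP (a log2 difference of -2.26), 3.00-fold below the IgG RIP of the same lysate (-1.59) and 3.43-fold below its own input (-1.78). Counted from the lowest of 19937 genes, these differences ranked 17, 149 and 86. RefSeq also lists a Krt8 pseudogene, and whether the probe set reads it was not tested.

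Krt18, which encodes the usual filament partner of KRT8, did not share this drop. Its signal was 8.16 in the FLAG:Ctrl input, 8.13 in the FLAG:MKRN1 input, 8.07 in both anti-FLAG RIPs and 7.80 in the IgG RIP. The 5 arrays lay within 0.36 of each other, the IgG RIP being lowest. The log2 difference of the MKRN1-labelled RIP was 0.00 from the FLAG:Ctrl RIP, 0.27 from the IgG RIP and -0.06 from its input. The 0.00 is an exact tie of deposited values. With each array centred on its median these differences were -0.20, 0.09 and -0.17. With quantile normalization they were 0.19, 0.43 and 0.06. Among the arrays Krt8 and Krt18 thus changed unequally in the MKRN1-labelled RIP, against both control RIPs and against input. Their inputs differed by -0.42 and -0.03 (FLAG:MKRN1 minus FLAG:Ctrl).

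Krt19, the other type I keratin gene of the group, stood out on a different array. It was 7.62 in the FLAG:Ctrl input, 7.51 in the FLAG:MKRN1 input, 8.30 in the FLAG:Ctrl RIP, 7.49 in the IgG RIP and 7.62 in the MKRN1-labelled RIP. The FLAG:Ctrl RIP alone was high, 1.61-fold above its input, which ranked 482 from the highest of 19937 genes. The difference of -0.68 between the MKRN1-labelled and the FLAG:Ctrl RIP goes with this high value, as the difference from the IgG RIP was 0.13 and that from input 0.11. Of the 3 keratin genes only Krt8 was at least 2-fold apart in any of the 6 comparisons, with or without rescaling of the arrays.

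Plet1, whose protein sits on the surface of early trophoblast and some epithelial progenitors, followed the lysate instead of the antibody. It was 7.48 in the FLAG:Ctrl input and 7.36 in the FLAG:Ctrl RIP, against 6.60 in the FLAG:MKRN1 input, 6.61 in the IgG RIP and 6.64 in the MKRN1-labelled RIP. Both arrays of FLAG:Ctrl lysate were above all 3 arrays of FLAG:MKRN1 lysate, and the values within each lysate were close. The inputs differed by -0.88, which is 1.84-fold and ranked 158 from the lowest of 19937 genes, while the 3 RIPs lay between -0.12 and 0.05 of their own inputs. Plet1 and Krt8 were the 2 of the 10 genes with both FLAG:Ctrl arrays above all 3 FLAG:MKRN1 arrays, an order that 3.90% of all genes showed; the gaps were 0.71 and 0.42. No member had the opposite order, which 3.49% of all genes showed. This order was looked at after the values were seen. Arrays of 1 lysate share their source and are not replicates of a line.

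Among the trophoblast factors, Tfap2c was measured well above the filter and the other 5 were near or below it. TFAP2C is also used in pluripotent and germ cells. Its signal was 7.46 in the FLAG:Ctrl input, 7.97 in the FLAG:MKRN1 input, 7.64 in the FLAG:Ctrl RIP, 7.44 in the IgG RIP and 7.82 in the MKRN1-labelled RIP. The FLAG:MKRN1 input was highest, 1.43-fold above the FLAG:Ctrl input (0.51, rank 597 from the highest). The IgG RIP was 1.44-fold below that input (-0.53), and the MKRN1-labelled RIP lay between, -0.15 from input and 0.38 from the IgG RIP. For no other member did the FLAG:MKRN1 input exceed that of FLAG:Ctrl cells.

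Eomes and Hand1, dim genes that are also used in early mesoderm, had their highest value in the MKRN1-labelled RIP. Eomes was 6.12 in the FLAG:Ctrl input, 5.91 in the FLAG:MKRN1 input, 6.20 in the FLAG:Ctrl RIP, 6.12 in the IgG RIP and 6.38 in the MKRN1-labelled RIP. Hand1, a factor of trophoblast giant cells, was 6.09 in the FLAG:Ctrl input, 6.03 in the FLAG:MKRN1 input and the IgG RIP, 6.01 in the FLAG:Ctrl RIP and 6.40 in the MKRN1-labelled RIP. For both genes the other 4 arrays were all lower. The MKRN1-labelled array also had the highest median over all probe sets, 5.88 against 5.68 to 5.77. Its SD was the smallest, 2.19 against 2.28 to 2.35. It had the most probe sets at or above the filter, 18125 against 16869 to 17472. How many other dim genes were highest on that array was not counted. Against input the MKRN1-labelled RIP was 0.47 higher for Eomes and 0.36 higher for Hand1, both short of 2-fold. Against the FLAG:Ctrl RIP they were 0.19 and 0.38, and with each array centred on its median the first became -0.02.

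The defining trophectoderm factors gave little signal that changed. Cdx2 had the same value, 5.46, on all 5 arrays, as did 2.59% of all genes within 1e-06. Gata3 was 5.32 in the FLAG:Ctrl input and 5.26 on the other 4 arrays. Elf5 was 5.64 in the FLAG:Ctrl input, 5.49 in the FLAG:MKRN1 input, 5.27 in the FLAG:Ctrl RIP, 5.46 in the IgG RIP and 5.49 in the MKRN1-labelled RIP. These 3 genes were below the filter on every array, so no fold is given for them. The filter itself does not show expression: the neighbouring keratin gene Krt79 read 6.67 on all 5 arrays.

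**Figure D2:**
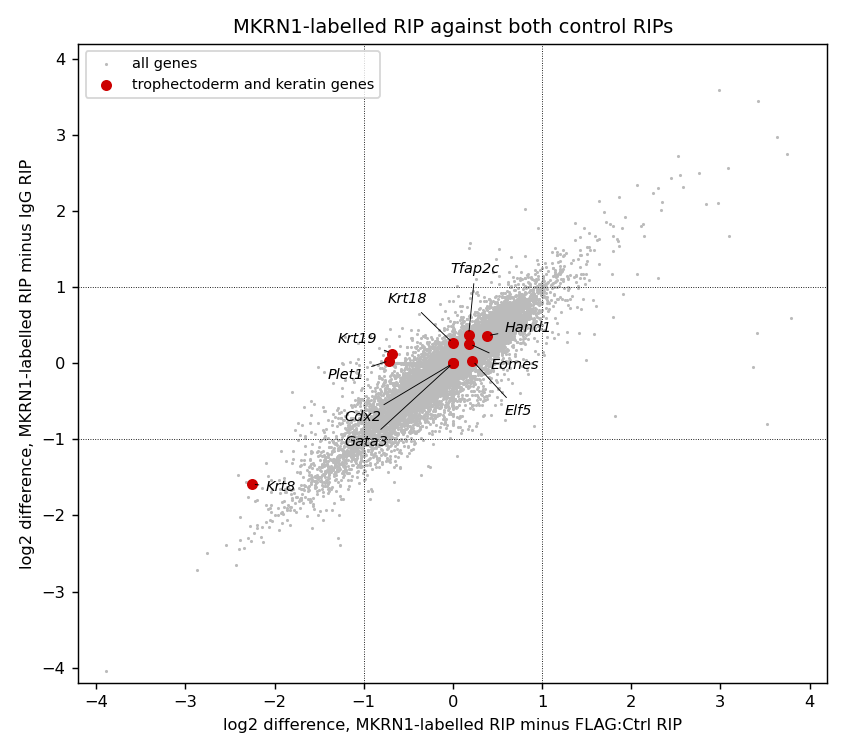
Each gene's log2 difference of the MKRN1-labelled RIP from the FLAG:Ctrl RIP (horizontal axis) and from the IgG RIP (vertical axis); grey points are all genes (5 lie outside the axes), red points the 10 members, and dotted lines mark 2-fold. Krt8 lies at -2.26 and -1.59, the other 9 members lie inside the 2-fold lines, and the MKRN1-labelled array enters both axes.

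Across the 10 genes, 1 was at least 2-fold lower in the MKRN1-labelled RIP than in the FLAG:Ctrl RIP, against 4.16% of all genes and 7.11% of those at or above the level filter. The same gene, Krt8, was lower than in the IgG RIP, against 4.03% and 6.94%. No member was 2-fold higher in either comparison, against 1.12% and 1.07% of all genes. The members' medians were 0.00 and 0.08, and those of all genes 0.06 and 0.05. Centring each array on its median moved the medians of all genes to -0.15 and -0.13 and gave Krt8 -2.46 and -1.77. Krt8 also met the stricter rule of being 2-fold below both control RIPs and below input, as 3.10% of all genes did. With 10 genes, 7 of them at or above the filter, a count of 1 is read as a result about Krt8 and not about the group.

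Of the members, 1 was at least 2-fold lower in the MKRN1-labelled RIP than in the input of that lysate, again Krt8, against 3.23% of all genes, and none was 2-fold higher, against 1.57%. In the control RIPs no member was 2-fold from input. Over the 7 members at or above the filter, the FLAG:Ctrl RIP ranged from -0.12 (Plet1) to 0.68 (Krt19), where 0.572% of all genes were 2-fold higher and 0.261% lower. The IgG RIP ranged from -0.53 (Tfap2c) to 0.21 (Eomes), where the shares were 0.798% and 0.321%. The medians over the members were 0.00, -0.03 and -0.01 for the MKRN1-labelled, FLAG:Ctrl and IgG RIPs, beside 0.07, 0.00 and 0.00 over all genes. The MKRN1-labelled and IgG RIPs share their input array.

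**Figure D3:**
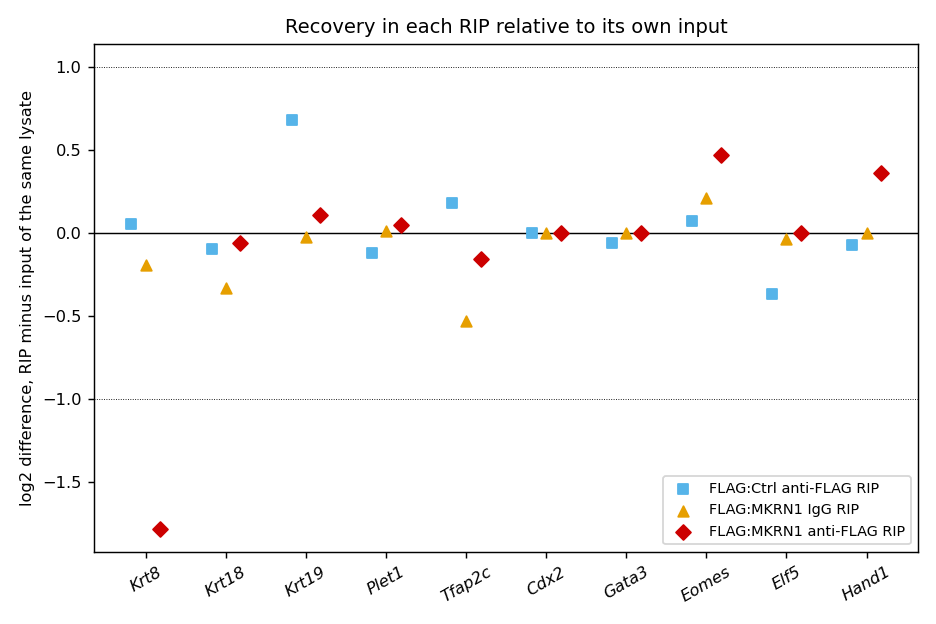
Log2 difference of each RIP from the input of the same lysate (vertical axis) for the 10 genes, 1 symbol per RIP; dotted lines mark 2-fold. Krt8 in the MKRN1-labelled RIP, at -1.78, is the point beyond the lower line, and Krt19 in the FLAG:Ctrl RIP, at 0.68, is the highest; Cdx2, Gata3 and Elf5 are below the level filter, so their points are not read.

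The inputs asked how far the 2 lines differed before any immunoprecipitation. No member was 2-fold apart, where 0.572% of all genes were higher and 0.497% lower in the FLAG:MKRN1 input. Differences ran from -0.88 for Plet1 and -0.42 for Krt8 to 0.51 for Tfap2c, and the other 4 members at or above the filter lay between -0.21 and -0.03. The median over the members was -0.08 and that of all genes 0.00.

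A wider list of 29 trophoblast and placenta genes, also chosen with earlier results of these data known, had 23 with a probe set of their own. Of these, 3 were at least 2-fold lower and 0 higher in the FLAG:MKRN1 input, beside 0.497% and 0.572% of all genes. Bmp4, which encodes a signalling ligand, was 10.41 in the FLAG:Ctrl and 8.83 in the FLAG:MKRN1 input, a difference of -1.57. Rhox9, a homeobox gene of the X chromosome, differed by -1.29. It was 10.23 in the FLAG:Ctrl input and 8.94 in the FLAG:MKRN1 input. The MKRN1-labelled and IgG RIPs of that second lysate read 9.89 and 10.10, so only the input was low. Tead4, whose factor acts upstream of Cdx2, was 9.07 and 7.87, a difference of -1.20, and its coactivator gene Yap1 differed by 0.22. The list median was -0.04. In the MKRN1-labelled RIP, 2 of the 23 were 2-fold below the FLAG:Ctrl RIP, Peg10 at -2.41 and Bmp4 at -1.45. The share was 4.16% of all genes and 7.11% of those at or above the filter. Against the IgG RIP 1 was 2-fold lower, Peg10 at -1.47, where the shares were 4.03% and 6.94%. Peg10, an imprinted gene that the placenta needs, was the 1 gene of this list 2-fold below both control RIPs and below input, as 3.10% of all genes were. It was 12.90 in the FLAG:Ctrl input, 11.96 in the FLAG:MKRN1 input, 12.60 in the FLAG:Ctrl RIP, 11.66 in the IgG RIP and 10.19 in the MKRN1-labelled RIP. The list medians were 0.00 against each control RIP.

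**Figure D4:**
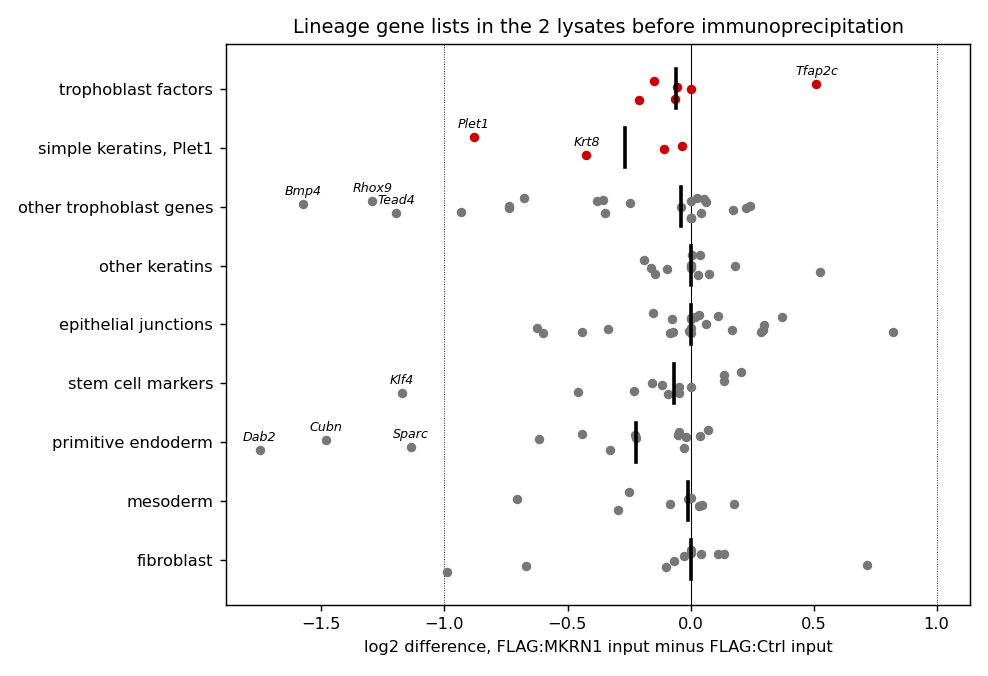
Log2 difference between the inputs, FLAG:MKRN1 minus FLAG:Ctrl (horizontal axis), for the genes of 9 lists (rows), 1 point per gene spread vertically for visibility; black bars are list medians, red points the 10 members, and dotted lines mark 2-fold. Points beyond 2-fold are all on the lower side, in the lists of other trophoblast genes, stem cell markers and primitive endoderm.

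Simple keratins are used in primitive endoderm too, so 14 markers of that lineage were set beside the members. The list was chosen with earlier results of these data known, so its counts are not independent of them. Of the 14 markers, 3 were at least 2-fold lower in the FLAG:MKRN1 input and 0 higher, beside 0.497% and 0.572% of all genes. They were the adaptor gene Dab2 at -1.75, the endocytic receptor gene Cubn at -1.48 (its mean below the filter) and the matrix gene Sparc at -1.14. The list median was -0.22. The log2 of their summed signal was 11.82 and 11.70 on the FLAG:Ctrl arrays and 10.82 to 10.88 on the FLAG:MKRN1 arrays. Sparc alone made up 57.6% to 70.2% of that sum, and without it the values were 10.07 and 10.18 against 9.50 to 9.58. Both FLAG:Ctrl arrays were above all 3 FLAG:MKRN1 arrays in 6 of these 14 genes and in 6 of the 23 wider trophoblast genes. The counts were 3 of 12 stem cell markers, 3 of 23 junction genes and 1 of 11 fibroblast markers. They were 0 of 13 other keratins and 0 of 9 mesoderm markers, beside the 3.90% of all genes, which include those below the filter. The opposite order was seen in 0 genes of every list and in 3.49% of all genes. These counts take any gap, however small. Among the counted endoderm genes the gap ran from 0.03 (Gata6) to 1.42 (Cubn), and Gata6, Pdgfra and Cubn had means below the filter. Among the counted trophoblast genes it ran from 0.11 (Wwtr1) to 1.14 (Bmp4), with Rhox9 at 0.12. The junction gene Cldn7 was counted at 0.005. The defining factor genes of primitive endoderm, Gata4, Gata6 and Sox17, differed by 0.04, -0.03 and -0.23 between the inputs, and Sox17 also had a mean below the filter. Among 12 stem cell markers Klf4 was 2-fold lower in the FLAG:MKRN1 input (-1.17), and the list median was -0.07. Of 11 fibroblast markers none was 2-fold apart between the inputs, the nearest being Thy1 at -0.99. The log2 of their summed signal was 10.57 and 10.11 on the FLAG:Ctrl arrays and 10.04 to 10.20 on the others. Thy1 alone made up 62.0% of that sum in the FLAG:Ctrl input and 28.9% to 44.0% elsewhere. Without it the values were 9.17 and 9.33 against 9.24 to 9.54. Between the MKRN1-labelled and the FLAG:Ctrl RIP, 4 of the 14 primitive endoderm markers were 2-fold lower and 0 higher, beside 4.16% and 1.12% of all genes. They were Dab2 at -1.80, Cubn at -1.52, the laminin gene Lama1 at -1.24 and Sparc at -1.05, and the list median was -0.04. Between the MKRN1-labelled RIP and the IgG RIP of the same lysate none of the 14 was 2-fold apart, with a list median of 0.04. Of all genes 4.03% were 2-fold lower and 1.07% higher in that comparison. The part of these markers in the values of Plet1 and Krt8 was not tested.

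Other parts of the epithelial programme were measured beside the simple keratins. Of 13 other keratin genes none was 2-fold apart in any of the 6 comparisons, and 8 had means below the filter. Krt7, another simple keratin, was 6.29 in the FLAG:Ctrl input and 6.80 to 7.19 on the other arrays. Of 23 genes for junctions and epithelial identity, 1 was 2-fold below the FLAG:Ctrl RIP in the MKRN1-labelled RIP, the tight junction scaffold gene Tjp1 at -1.08. Against the IgG RIP 1 was 2-fold lower, Cdh1, which encodes E-cadherin, at -1.03, and it was also 2-fold below input at -1.06. The shares of all genes 2-fold lower were 4.16% against the FLAG:Ctrl RIP, 4.03% against the IgG RIP and 3.23% against input. The desmosomal plaque gene Dsp, whose protein anchors keratin filaments, differed by -0.73 and -0.58 from the FLAG:Ctrl and IgG RIPs, and Epcam by -0.02 and -0.26. Another desmosomal plaque gene, Pkp1, went the other way, at 0.88 and 0.70, the highest of the list in both comparisons. The list medians were -0.17 and -0.12, and no junction gene was 2-fold apart between the inputs.

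Profiles over the 5 arrays were compared after each gene was centred on its mean, among 11502 genes at or above the filter. The 5 genes nearest to Krt8, by root mean square difference, were Npl at 0.11, Nxt2 at 0.15, Ddah1 at 0.16, and Mpp5 and Itga6 at 0.17 each. Npl encodes a sialic acid lyase, Nxt2 an mRNA export factor, Ddah1 an enzyme that degrades dimethylarginine, Mpp5 the polarity protein PALS1 and Itga6 the integrin alpha 6 chain. Their differences of the MKRN1-labelled RIP from the FLAG:Ctrl RIP ran from -2.30 (Npl) to -1.79 (Nxt2), and those from the IgG RIP from -1.86 (Mpp5) to -1.26 (Nxt2). The 5 nearest to Krt18 were Gxylt1 at 0.02 and Ptp4a2, Khsrp, Rtn2 and Elp6 at 0.03 each, all of them flat apart from a lower IgG RIP. The likeness runs over 5 arrays only, of which 3 share a lysate. These genes were picked for profiles like that of each keratin. Their drop or flatness therefore follows from the choice and is not a separate result.

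**Figure D5:**
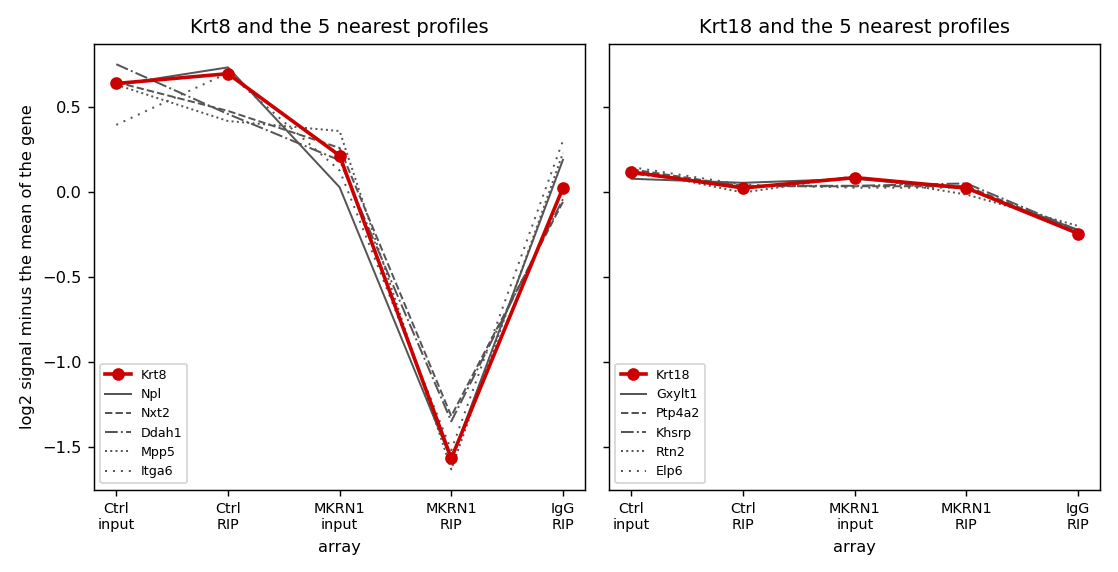
Log2 signal minus the gene's own mean over the 5 arrays (vertical axis) for Krt8 (left) and Krt18 (right) in red, with the 5 genes nearest to each in grey; arrays have no order and lines only join the points of a gene. Krt8 drops in the MKRN1-labelled RIP, while Krt18 keeps within a narrow band. The grey genes were chosen for their likeness, so that they follow the keratin is built in.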

How the data were processed

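RNA of 5 samples was hybridised to 1 array each. The authors' deposited table holds log2 values, 1 per probe set and array; the scale was read from the values, and how they were background-corrected, summarised and normalised, and on which genome build, is not stated in these sources. Per the labels' protocols, RNA was labelled with biotin by Affymetrix procedures. Arrays have no read depth, and their small number sets the precision.

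Of 34760 probe sets, 21640 had 1 gene symbol in the platform annotation, 1321 several and 11799 none; 21553 were matched by gene identifier to RefSeq (GRCm38.p6), which updated symbols, and 87 kept the platform's. Each gene took its probe set with the highest mean. Differences of log2 values were counted at 2-fold, with no test, in Python 3.11.15 with pandas 2.3.3 and numpy 2.4.6; the counting was tested on simulated data. No column was left out. The 10 members are all named. Of other lists up to 4 genes at least 2-fold apart in a comparison were named by rule. Pou5f1, Sox2, Mkrn1, Yap1, Wwtr1, Gata4, Gata6, Sox17, Pdgfra, Krt7, Krt79, Dsp, Pkp1, Epcam, Cldn7, Cdh3 and Twist1 were chosen after their values were seen. The members and 7 further gene lists were chosen with earlier results of these data known. Alternatives were centring, quantile normalization, raising dim values to the level filter, the median over probe sets and a 1.5-fold threshold.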

Additional observations from a re-analysis of the deposited data

Results flagged for a closer look

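The effect of immunoprecipitation on Krt8 differed between the lysates. The anti-FLAG RIP minus input was -1.78 in FLAG:MKRN1 lysate and 0.06 in FLAG:Ctrl lysate, opposite in sign, and the difference between these effects was -1.83. With 1 array per group this difference was not tested. With quantile normalization the effects were -1.81 and -0.03, of the same sign, and their difference was -1.79. Of 19937 genes, 894 (4.48%) had effects of opposite sign that differed by at least 2-fold, and Krt8 ranked 95 from the lowest.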

How the results depend on the processing

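Counts of members at least 2-fold apart kept their values under centring, quantile normalization, raising dim values to the level filter and the median over probe sets, in all 6 comparisons. At 1.5-fold, 1 member was lower in the FLAG:MKRN1 input (Plet1), 3 were lower in the MKRN1-labelled than in the FLAG:Ctrl RIP (Krt8, Krt19 and Plet1), and 1 was higher in the FLAG:Ctrl RIP than in its input (Krt19). Of 240 single differences recomputed, 234 moved by less than 0.206, the SD over genes of the difference between the control RIPs. The other 6 belonged to Cdx2, Elf5 and Gata3, all below the filter. Many of the 234 could not have moved further. Centring shifts every gene of a comparison alike, the widest shift being -0.205, between the MKRN1-labelled and FLAG:Ctrl RIPs. Raising dim values cannot change the 7 members at or above the filter. With quantile normalization 56 moved by less than 0.206 and 4 by more. Krt8 lay between -2.46 and -2.21 relative to the FLAG:Ctrl RIP and between -1.77 and -1.57 relative to the IgG RIP. Every member has 1 probe set, so the median over probe sets could not change its values. Of the 240, 17 changed sign, 10 with centring and 7 with quantile normalization, and none of these was larger than 0.22 as deposited. Examples with centring are Tfap2c (0.18 to -0.03) and Eomes (0.19 to -0.02) against the FLAG:Ctrl RIP, and Krt19 (0.13 to -0.05) and Plet1 (0.04 to -0.14) against the IgG RIP. No paired analysis was possible because each group holds 1 array. Signal near background limits Cdx2, Gata3 and Elf5.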

Other observations

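Some genes of the wider lists stood apart on arrays other than the MKRN1-labelled RIP. Rhox9 was low in the FLAG:MKRN1 input alone, at 8.94 against 9.89 to 10.23 on the other 4 arrays. It was thus 1.16 above input in the IgG RIP and 0.95 above it in the MKRN1-labelled RIP. In the FLAG:Ctrl RIP it was level with input (-0.00). Cdh3, which encodes P-cadherin, was 8.65 in the IgG RIP against 7.65 to 7.93 on the other 4 arrays. S100a4, a calcium-binding protein gene on the fibroblast list, was also highest in the IgG RIP, at 8.04, and lowest in the FLAG:Ctrl input, at 6.29.

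Mesoderm markers, which share Eomes and Hand1 with the trophoblast, stayed low: 6 of the 9 measured had means below the filter, and none was 2-fold apart in any comparison. Twist1, a mesenchymal factor gene, was highest in the MKRN1-labelled RIP, at 7.32 against 6.58 to 6.74 elsewhere. That array also had the highest median signal over all probe sets.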
